A study of Mus musculus with 12 samples.

Results

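Of 16868 autosomal CCCGGG sites with 100 or more reads in 11 colonic adenomas, 1237 (7.33%) were partly methylated in the control adenomas, with a mean level of 5% or more and below 20%. These sites were chosen by the mean adjusted methylation level of the 3 control adenomas, so the control levels are a description of the choice. DNA methylation had been measured in 12 adenomas of C57BL/6J mice aged 150 to 160 days by digital restriction enzyme analysis of methylation (DREAM). The assay counts, at each CCCGGG site, reads from molecules that SmaI cut while unmethylated and reads from molecules that only XmaI cut because they were methylated. All mice carried Apc Min/+, a truncating allele of the tumour suppressor Apc whose loss starts intestinal adenomas. The controls were wild type for Tet1 and Tdg, the Tet1 null mice were Tet1-/- Tdg+/+, the Tdg heterozygous mice were Tet1+/+ TdgN151A/+, and the double heterozygous mice were Tet1+/- TdgN151A/+. Each genotype had 3 adenomas, and the third double heterozygous adenoma entered neither the choice nor the main values (2349576 reads in all, against 8213211 to 18865833 in the other 11).

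Tet1 oxidises 5-methylcytosine, and Tdg removes the oxidised bases by base excision, so both act on the path from methylated to unmethylated cytosine. The N151A change lies in the catalytic site of Tdg and takes away its glycosylase activity. CpG-rich promoters are mostly free of methylation in normal tissue, most other CpGs are methylated, and levels between these states are common at the edges of CpG islands and at sites that differ between cells. A site at 10% in a piece of tissue can be methylated in few cells or on some copies in many, and these states cannot be told apart in whole adenomas, which also hold stroma and immune cells. The sites are given by their position in mouse build mm9. No mm9 gene annotation or genome was used here, so sites are not assigned to genes, no sequence around them is printed, and the absence of Tet1 and the cell makeup of the adenomas were not checked.

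Sites near the lower limit were the most frequent: the control mean was below 10% at 547 sites, 10 to 15% at 391 and 15 to 20% at 299. All 3 controls lay between 5 and 20% at 722 of the 1237 sites. At 298 sites at least 1 control was below 5%, and at 247 at least 1 was at 20% or above, with 30 sites in both counts. Single control values ran from 0.24 to 44.1%, and the median SD between the 3 controls was 2.69 percentage points. Just outside the lower limit, position 72377529 on chromosome 15 had a control mean of 4.997% and stood at 37.3, 12.7 and 21.8% in the Tet1 null adenomas, and position 63593843 on chromosome 14 had the same control mean. Just inside it, positions 33495990 and 152560473 on chromosome 2 had control means of 5.02 and 5.05%. Just below 20%, the control mean was 19.97% at position 32099137 (chromosome 14) and 19.98% at position 172116551 (chromosome 2). The next sites above were at 20.07% (position 79882306, chromosome 10) and 20.08% (position 116121874, chromosome 11).

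The mutant adenomas spread more widely than the controls, whose own values chose the sites, also within a genotype. The mean level over the 1237 sites was 10.8, 11.7 and 11.8% in controls 1 to 3. It was 13.6, 20.3 and 18.04% in Tet1 null adenomas 1 to 3, 11.03, 10.1 and 15.2% in Tdg heterozygous adenomas 1 to 3, and 19.7 and 10.97% in double heterozygous adenomas 1 and 2. Tet1 null 2 and 3, double heterozygous 1 and Tdg heterozygous 3 thus stood above all other adenomas, and 3 genotypes held at least 1 of these 4. As group means these are 11.4% ± 0.524 (SD, n = 3) for control, 17.3% ± 3.42 (n = 3) for Tet1 null, 12.1% ± 2.73 (n = 3) for Tdg heterozygous and 15.3% ± 6.16 (n = 2) for double heterozygous adenomas. The ranges of the 3 mutant genotypes overlapped. Double heterozygous 3, at the 739 sites where it too had 100 reads, was at 12.1%, where double heterozygous 1 and 2 were at 19.3 and 10.8%.

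**Figure D1:**
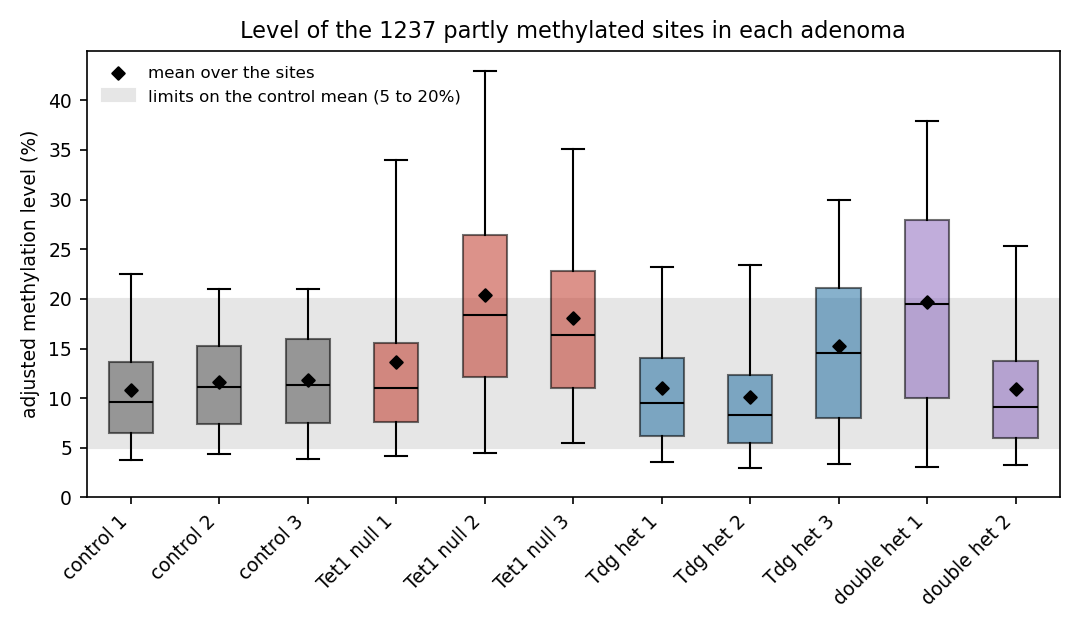
Adjusted methylation level (y axis, percent) of the 1237 sites in each of 11 adenomas (x axis); boxes span the quartiles with the median as a line, whiskers the 5th to 95th percentiles, diamonds the mean, and the grey band the limits on the control mean. The median lies at 18.4% in Tet1 null 2 and 19.4% in double heterozygous 1 (double het 1) but at 10.99% in Tet1 null 1, whose upper whisker is long.

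In the 4 higher adenomas many sites stood high, not a few. In double heterozygous 1, 605 sites (48.9%) were at 20% or above, as were 535 in Tet1 null 2, 431 in Tet1 null 3 and 362 in Tdg heterozygous 3. The other 4 mutant adenomas had 96 to 166 such sites and the controls 90 to 103. Tet1 null 1 had a different shape: its median was 10.99%, beside 11.1 and 11.3% in controls 2 and 3, but it had a long upper tail. Levels of 50% or more occurred at 25, 30 and 17 sites in Tet1 null 1, 2 and 3, at 2, 4 and 0 sites in the Tdg heterozygous adenomas and at 3 and 4 sites in double heterozygous 1 and 2. At 57 sites at least 1 Tet1 null adenoma reached 50%, at 10 sites at least 2 did, and at 5 sites all 3 did.

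Because the controls set the class, each control was also left out of the choice in turn and the class drawn on the other 2. The left-out control then stood at 11.2% (control 1, 1196 sites), 12.1% (control 2, 1240 sites) and 12.2% (control 3, 1246 sites). Over the same sites Tet1 null 2 stood at 20.2 to 20.8%, Tet1 null 3 at 18.1 to 18.3%, double heterozygous 1 at 19.2 to 20.3% and Tdg heterozygous 3 at 14.9 to 15.7%. Tet1 null 1, at 13.6 to 13.7%, had a mean above that of the left-out control each time, but its level was higher at 64.0% of the sites with control 1 left out and only at 45.97 and 42.6% with control 2 or 3 left out. Tdg heterozygous 1 and 2 and double heterozygous 2 were at 10.2 to 11.3%, in each case below the left-out control.

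The 4 adenomas that stood high here also stood high at sites of 20 to 80% in control, a separate class of 3162 sites. That class had a mean of 65.0% in Tet1 null 2, 62.3% in double heterozygous 1, 60.3% in Tet1 null 3 and 58.2% in Tdg heterozygous 3. The remaining mutants were at 54.3 to 56.4% and the controls at 52.4 to 54.3%. Sites below 5% in control did not share this order: they were at 0.487% in double heterozygous 1 and 0.415% in Tdg heterozygous 3, against 0.651, 0.835 and 0.820% in the Tet1 null adenomas. The Luc standard, DNA of a set methylation level spiked into each library, read 23.1 to 24.2% over the 11 libraries, a range of 1.12 points, the Kan standard read 29.4 to 32.1%, and the Gfp standard read 34.3 to 37.8% with its highest value in Tet1 null 3. The unmethylated standard La168 read at most 1.51% (double heterozygous 1). All these standard values are adjusted levels, and the adjustment itself used spiked standards. Their narrow ranges are therefore no independent check of the libraries. By their Y chromosome reads (0 to 10 in 5 adenomas, 485 to 3281 in 7), Tet1 null 2 and double heterozygous 1 were male and Tet1 null 3 and Tdg heterozygous 3 female. Control 1, Tet1 null 1, Tdg heterozygous 2 and double heterozygous 2 and 3 were also male. Controls 2 and 3 and Tdg heterozygous 1 were female, so sex was uneven across the genotypes. The share of tumour cells in each adenoma was not measured here, and its part in these levels was not tested.

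**Figure D2:**
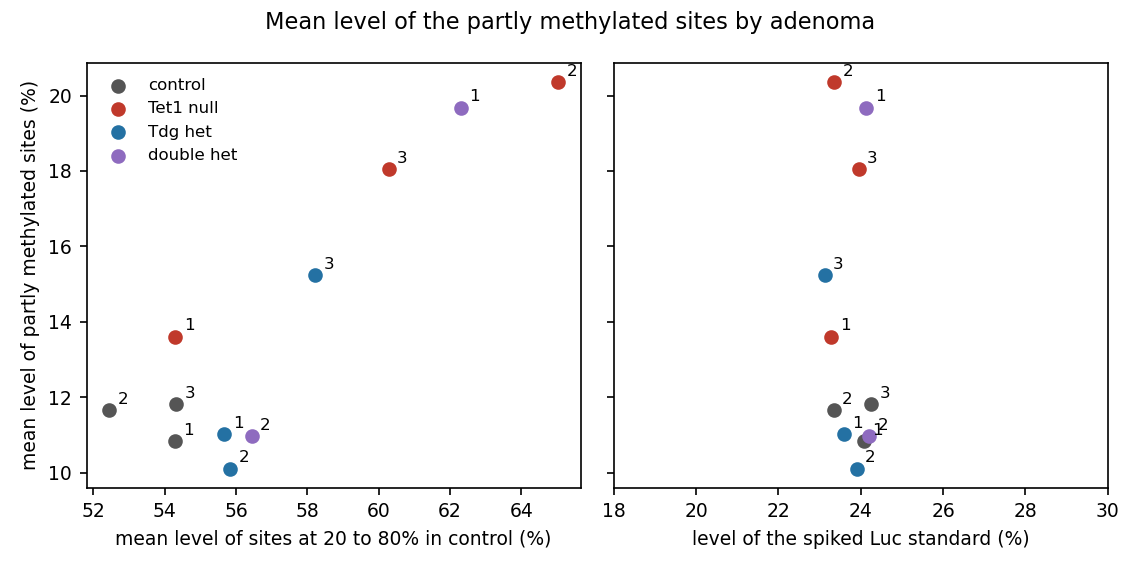
Mean level of the 1237 partly methylated sites in each of 11 adenomas (y axis, percent) against the mean of the 3162 sites at 20 to 80% in control (left) and against the spiked Luc standard (right, both in percent); points are adenomas, coloured by genotype and numbered by replicate. Tet1 null 2 and double heterozygous 1 are highest on both axes at left. The standard, itself an adjusted level corrected with spiked standards, stays between 23.1 and 24.2%.

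Nearly all sites that were high in Tdg heterozygous 3 were also high in double heterozygous 1, an adenoma of another genotype and sex. Across the 1237 sites the levels of this pair had a Spearman rho of 0.909, the highest of the 28 pairs of mutant adenomas (median 0.563, lowest 0.360). Of the 362 sites at 20% or above in Tdg heterozygous 3, 348 (96.1%) were so in double heterozygous 1. These made up 57.5% of the 605 sites there, which were 48.9% of all 1237. Of the sites at 20% or above in each of the other adenomas, 43.7% (control 1) to 84.4% (control 3) were so in double heterozygous 1. Tet1 null 2 shared 381 sites with double heterozygous 1, which was 71.2% of its own 535 and 63.0% of the 605. Double heterozygous 1 and 2, of the same genotype, had the lowest rho of the 28 mutant pairs (0.360). The 7 pairs within a mutant genotype ranged from 0.360 to 0.756 and the 21 pairs between genotypes from 0.377 to 0.909. These are correlations across sites, which are not independent replicates, share libraries and include neighbours on the same fragment.

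**Figure D3:**
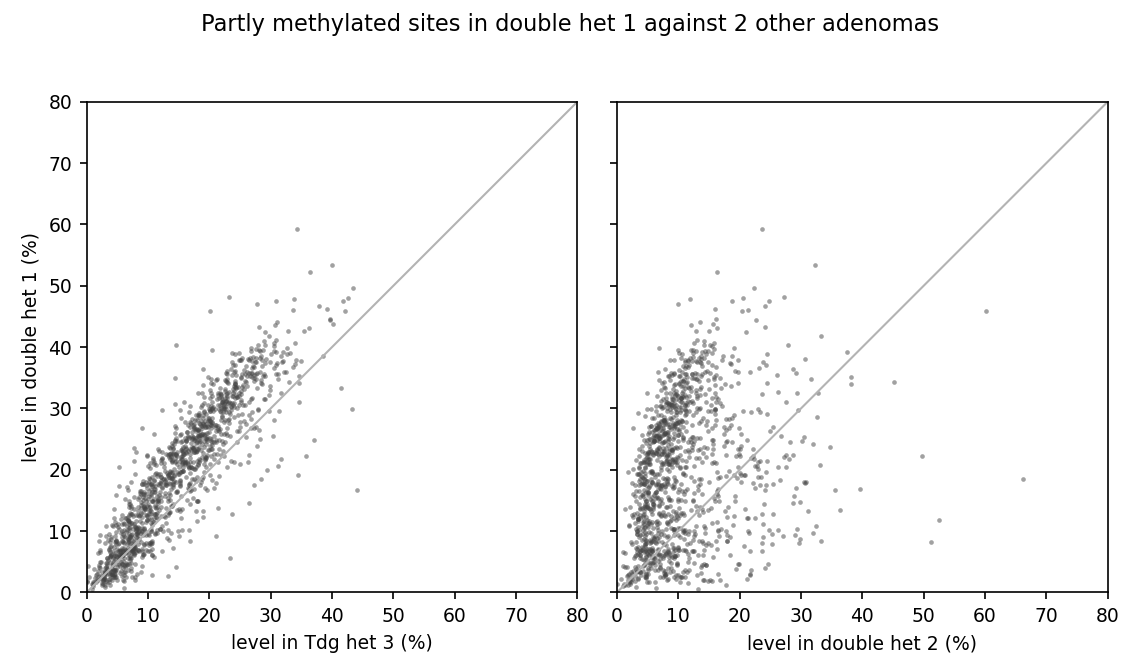
Level of each of the 1237 sites in double heterozygous adenoma 1 (y axis, percent) against Tdg heterozygous adenoma 3 (left) and double heterozygous adenoma 2 (right, x axes in percent); each point is a site and the line marks equal levels. At left the points follow a narrow band above the line (Spearman rho 0.909), at right they spread (rho 0.360).

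The next question was which partly methylated sites differ between mutant genotypes, a comparison that uses no control value. Tet1 null adenomas were higher at 60 of the 1237 sites than Tdg heterozygous adenomas and lower at 0 (two-sided edgeR quasi-likelihood test on counts of both states, Benjamini-Hochberg adjusted p under 0.05 over 14462 sites). This is 4.85% of the partly methylated sites, where 1.71% of all tested sites were called. By level in control, the share called was 1.83% of 8044 sites below 5%, 1.11% of 3162 sites at 20 to 80% and 0.297% of 2019 sites at 80% and above. Sites of different levels are not called with the same ease, so these shares are given side by side without a test. The median difference at the 60 sites was 25.1 points (interquartile range 20.4 to 31.6), and the smallest was 11.8 points. At 58 of the 60, all 3 Tet1 null values lay above all 3 Tdg heterozygous values. Over all 1237 sites the Tet1 null adenomas lay wholly above the Tdg heterozygous ones at 192 (15.5%), where 7.40% of all 16868 sites did so, and wholly below at 4 (0.323%), where 1.61% did so. Limma on log2 ratios of the counts called 49 sites, 45 of them among the 60 (1.54% of all tested sites called). The edgeR count was 38 without Tet1 null 2, 37 without Tet1 null 3 and 30 without Tdg heterozygous 1. In these fits the share of all tested sites called was also lower, at 1.09, 0.881 and 0.827%.

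Across the 60 called sites, Tet1 null 1, 2 and 3 had median levels of 35.3, 30.6 and 30.9%. The Tdg heterozygous adenomas, which the comparison also used, had 4.91, 4.99 and 6.94%. Double heterozygous 1 and 2, which entered only the estimate of the spread, had 11.2 and 8.22%. Double heterozygous 3 had a median of 10.7% over the 42 of these sites with 100 reads. In the controls the medians were 10.4, 7.27 and 6.53%. Tet1 null 1, which was the lowest of its genotype over all partly methylated sites, was thus the highest at these. All 3 Tet1 null values lay above the values of all 8 other adenomas at 36 of the 60 sites. The Tet1 null and Tdg heterozygous values chose the 60 sites, and this count was not made over all sites, so it is a description. The 60 sites included 17 of the 722 sites where every control lay between 5 and 20% (2.36%) and 43 of the 515 others (8.35%).

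The sites with the largest differences varied in how alike the other adenomas were. Position 35660144 on chromosome 16 stood at 96.2, 74.5 and 83.1% in the Tet1 null adenomas, 10.1, 10.7 and 10.2% in the Tdg heterozygous, 18.7 and 19.6% in double heterozygous 1 and 2, and 10.3, 11.5 and 11.6% in the controls (edgeR adjusted p = 1.37e-13 for Tet1 null against Tdg heterozygous). Double heterozygous 3 was at 17.3%, so all 3 double heterozygous values lay between the Tet1 null values and those of the Tdg heterozygous and control adenomas. The site was not called for double heterozygous 1 and 2 against Tdg heterozygous adenomas (edgeR unadjusted p = 0.138). Position 118138315 on chromosome 3 stood at 94.8, 56.3 and 85.1% in the Tet1 null adenomas, but at 6.86, 34 and 16.9% in the Tdg heterozygous, 14.5 and 23.9% in the double heterozygous and 30.2, 4.25 and 8.51% in the controls (edgeR adjusted p = 7.57e-08). The groups did not overlap, yet outside the Tet1 null adenomas the site varied between 4.25 and 34%.

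Position 10154587 on chromosome 8 stood at 74.3, 52.8 and 65.8% in Tet1 null, 16.9, 5.01 and 18.97% in Tdg heterozygous and 13.2 and 31.2% in double heterozygous adenomas, with 14.9, 10.1 and 3.21% in the controls (edgeR adjusted p = 7.66e-06). Position 75856108 on chromosome 14 stood at 74.8, 53.98 and 63.3% in Tet1 null, 22.96, 6.46 and 16.9% in Tdg heterozygous and 17.8 and 22.1% in double heterozygous adenomas (edgeR adjusted p = 3.72e-05). Its control values of 44.1, 10.2 and 4.89% include 1 far above the other 2. Position 144519106 on chromosome 5 stood at 69.4, 63.5 and 34.6% in Tet1 null, 23.1, 4.16 and 7.65% in Tdg heterozygous and 21.4 and 8.02% in double heterozygous adenomas (edgeR adjusted p = 3.43e-05), and lay 350 bp from a site at 83.3% in control.

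Position 107261130 on chromosome 3 stood at 53.7, 44.5 and 37.97% in Tet1 null, 3.42, 4.97 and 6.85% in Tdg heterozygous and 11.5 and 5.64% in double heterozygous adenomas (edgeR adjusted p = 2.35e-06). Position 115678106 on chromosome 2 stood at 58.3, 42.6 and 32.1%, 4.25 to 5.45% and 17.4 and 13.2% in the same order (edgeR adjusted p = 2.79e-06). Position 107281178 on chromosome 9 stood at 52.6, 47.98 and 50.4%, 13.8, 9.16 and 19.6%, and 25.03 and 5.34% (edgeR adjusted p = 0.00244). Of these 8 sites, which were the largest differences with groups that did not overlap, 5 lay within 500 bp of a measured site below 5% in control. Each had a limma adjusted p of 0.0391 or less, and each value in the 11 adenomas had 154 to 1976 reads behind it.

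Against double heterozygous adenomas 1 and 2, Tet1 null adenomas were higher at 19 of the 1237 sites and lower at 0 (edgeR, adjusted p under 0.05). This is 1.54% of the partly methylated sites, where 0.595% of all tested sites were called. The median difference was 27.8 points, at least 17.9 points at each site, and the groups did not overlap at any of the 19. Tet1 null 1, 2 and 3 had medians of 52.6, 39.8 and 34.6% there, and double heterozygous 1 and 2 had 9.96 and 4.49%. The Tdg heterozygous adenomas, which entered only the estimate of the spread, had 5, 5.01 and 6.84%. Position 35660144 on chromosome 16 led again (edgeR adjusted p = 5.82e-07, limma adjusted p = 0.00751), followed by position 118138315 on chromosome 3 (1.02e-05 and 0.0861 in the same order). Both comparisons share the Tet1 null adenomas, so their lists are not independent. Limma called 3 of the 1237 sites, where it called 0.201% of all tested sites. Leaving out Tet1 null 1 gave 9 sites by edgeR, Tet1 null 3 gave 8, and Tdg heterozygous 1, which enters only the estimate of the spread, gave 12. Of all tested sites 0.422, 0.259 and 0.392% were called in these fits. Double heterozygous 1 and 2 were themselves unlike, with means of 19.7 and 10.97% over the 1237 sites. Without either of them only 1 adenoma of that genotype was left, so the spread within it could not be measured. With double heterozygous 3 added, at sites with 100 reads in all 12 adenomas, 24 of 739 partly methylated sites were called (3.25%, against 1.14% of all 7446 sites tested there), 15 of them among the 19. Of the 722 sites where every control lay between 5 and 20%, 2 were called (0.277%), a share below the 0.595% of all sites, against 17 of the 515 others (3.30%). Tet1 null adenomas lay wholly above double heterozygous 1 and 2 at 160 sites (12.9%, against 7.90% of all sites) and wholly below at 9 (0.728%, against 4.11%).

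Between the double and the Tdg heterozygous adenomas, 0 of the 1237 sites were called by edgeR and 0 by limma (0% of all tested sites in each), with 35 (2.83%) and 43 (3.48%) sites at an unadjusted p under 0.05. Of all tested sites 2.53 and 2.496% had such a p, which is close to the share by edgeR and below that by limma. The double heterozygous adenomas lay wholly above the Tdg heterozygous ones at 79 sites (6.39%, against 6.63% of all sites) and wholly below at 29 (2.34%, against 3.40%), so both shares were near or below that of all sites. The smallest p was at position 138630147 on chromosome 4, which stood at 16.9 and 39.6% in double heterozygous 1 and 2 and 5.93, 3.95 and 10.5% in the Tdg heterozygous adenomas, with 35.4, 40.4 and 31.3% in the Tet1 null ones. That site was called for Tet1 null against Tdg heterozygous (edgeR adjusted p = 0.000431) and not for Tet1 null against double heterozygous (adjusted p = 0.98). With 2 and 3 adenomas whose own spread is wide (median SD of 7.96 points in double heterozygous, 4.73 in Tdg heterozygous), a count of 0 does not show that the genotypes are alike.

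**Figure D4:**
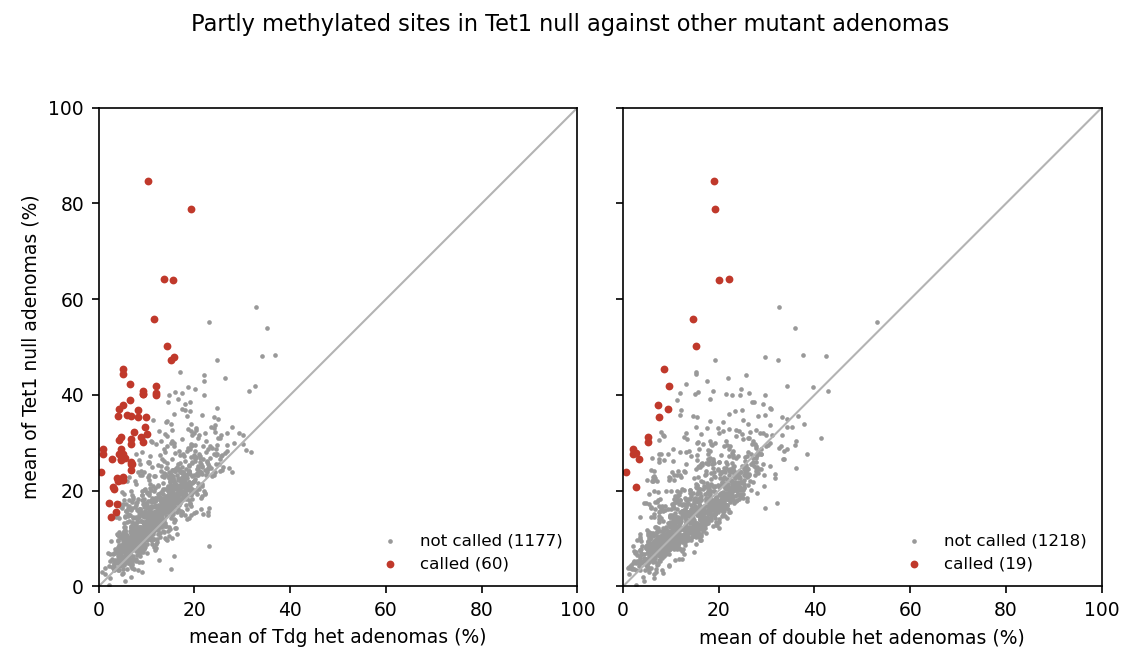
Mean level of each of the 1237 sites in the 3 Tet1 null adenomas (y axis, percent) against the mean of the 3 Tdg heterozygous (left) and of double heterozygous 1 and 2 (right, x axes in percent); red points are sites called by edgeR (60 and 19), grey points are the rest, and the line marks equal levels. All called sites lie above the line, most of them at 20% or less on the x axis.

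Set against the controls, the mutants are described without a test, since the control values chose the sites. Tet1 null adenomas lay wholly above the controls at 244 sites (19.7%, against 9.87% of all 16868 sites) and wholly below at 15 (1.21%, against 0.937%). Tdg heterozygous adenomas lay wholly above at 40 sites (3.23%, against 5.32%) and wholly below at 32 (2.59%, against 1.58%). Double heterozygous 1 and 2 lay wholly above at 119 sites (9.62%, against 11.1%) and wholly below at 48 (3.88%, against 2.30%). The lowest Tet1 null levels relative to control were at position 117095783 on chromosome 13, with 3.67, 4.82 and 2.40% in Tet1 null and 4.99, 14.3 and 30.5% in control adenomas, and at position 61301397 on chromosome 19, with 2.30, 6.50 and 4.52% against 31.1, 7.90 and 2.88%. At the chromosome 19 site 1 control stood far above the other 2, and the groups overlapped. They also overlapped at the third, position 112074653 on chromosome 14, at 6, 1.89 and 7.17% against 14.6, 6.89 and 18.9%.

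The surroundings of the partly methylated sites lay between those of unmethylated and of methylated sites. Sequenced fragments run from one CCCGGG site to the next, so neighbours can share fragments. Of the 1237 sites, 247 (19.97%) had 2 or more other CCCGGG sites within 500 bp, compared with 53.98% of sites below 5% and 10.03% of sites at 20 to 80%. The nearest measured site within 500 bp was below 5% in control at 372 of them, itself at 5 to 20% at 412, at 20 to 80% at 353 and at 80% or above at 65, and 35 had none. By contrast, 92.96% of the sites below 5% had a nearest site below 5%. The partly methylated sites formed 1014 runs with gaps of 500 bp or less, of which 804 held 1 site, 197 held 2 and 13 held 3. They were found on all 19 autosomes, at 5.28% of the sites on chromosome 19 to 8.49% on chromosome 2.

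The level of the neighbour went with which adenomas stood high. Beside a site below 5%, the 372 partly methylated sites averaged 14.4, 17.4 and 16.6% in Tet1 null adenomas 1 to 3. They averaged 9.22, 9.54 and 10.5% in the Tdg heterozygous, 13.1 and 9.999% in the double heterozygous and 10.6, 9.38 and 9.69% in the control adenomas. All 3 Tet1 null adenomas were thus above all the others. Beside a site at 20 to 80%, the 353 sites averaged 14.1, 23.7 and 19.8% in Tet1 null, 12.8, 11.5 and 18.7% in Tdg heterozygous, 24.3 and 12.6% in double heterozygous and 11.7, 13.4 and 13.5% in control adenomas. Here double heterozygous 1 was the highest, and Tet1 null 1 lay below Tdg heterozygous 3. Sites called for Tet1 null against Tdg heterozygous numbered 34 of the 372 (9.14%), 13 of the 412 beside another partly methylated site (3.16%), 11 of the 353 (3.12%) and 1 of the 65 beside a site at 80% or above (1.54%). The Tet1 null adenomas lay wholly above the Tdg heterozygous ones at 103 (27.7%), 47 (11.4%), 36 (10.2%) and 2 (3.08%) sites of these 4 sets. Over all sites, 1.71% of the 14462 tested were called and 7.40% of 16868 lay wholly above. These 2 shares were not split by neighbour. The grouping by neighbour was made after the levels were seen, and no test was run on it.

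**Figure D5:**
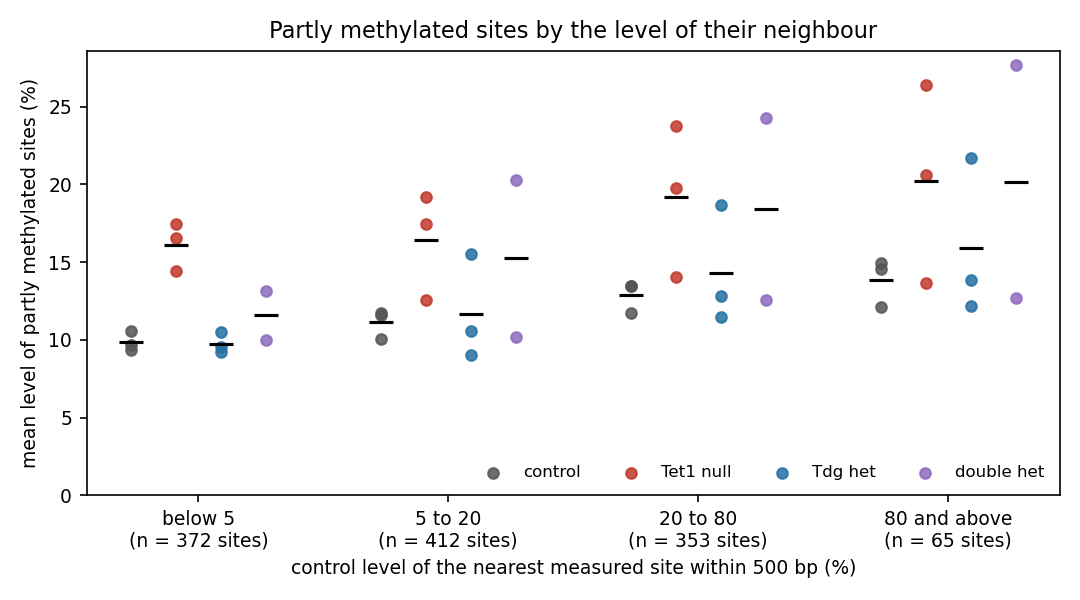
Mean level of the partly methylated sites in each of 11 adenomas (y axis, percent), with the sites split by the control level of their nearest measured site within 500 bp (x axis, percent); points are adenomas coloured by genotype and bars the genotype means. Beside sites below 5% the 3 Tet1 null adenomas, at 14.4 to 17.4%, lie above all others, and beside sites at 80% and above double heterozygous 1, at 27.7%, is the highest.

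Levels at some partly methylated sites differed little between the 11 adenomas. The range over the 11 adenomas was below 5 points at 14 sites and 20 points or more at 579 (median 19.3 points). Position 63932920 on chromosome 9 lay between 4.19 and 7.28% in the 11 and at 10.6% in double heterozygous 3 (193 reads). The next were position 83544459 on chromosome 10 between 10.9 and 14.03%, and position 21605498 on chromosome 4 between 4.31 and 7.52%. The chromosome 10 site lay 238 bp from a site at 78.99% in control. The widest ranges were at positions 118138315 and 35660144 described above and at position 128535480 on chromosome 7, where Tet1 null 1 stood at 73.8% and Tet1 null 2 and 3 at 23.5 and 9.64%. Of the 13 runs of 3, the first 3 in genome order are described. The run of 3 sites on chromosome 2 at positions 152239982, 152240044 and 152240292 was low in double heterozygous 1 (2.09, 2.5 and 0.76%) and Tdg heterozygous 1 (2.70, 3.30 and 2.18%), with 8.83, 9.99 and 5.84% in control 1. In the run on chromosome 3 at positions 94976695, 94977009 and 94977064 the Tet1 null adenomas averaged 26.2, 11.5 and 16.2%. In the run on chromosome 4 at positions 120725061, 120725384 and 120725738 they averaged 18.03, 7.63 and 9.68%, and none of these 9 sites was called.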

How the data were processed

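DREAM libraries of 12 colonic adenomas were analysed, 3 for each of 4 genotypes. The submitters' processing notes name Trim Galore, Bowtie2 and the build mm9, and the deposited site identifiers also carry mm9 (the extraction protocol names a rat build, and no versions are stated). For 173449 sites the authors deposited read counts of both states. They also deposited a raw percent level and a percent level they corrected with spiked standards, per the labels' protocols. The labels name no molecular identifiers and do not tie adenomas to mice. The p-values therefore measure only the spread between these adenomas, which may be technical or within a mouse.

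The sites and lists were chosen with earlier results of these data known. Autosomal sites (164896) that had 100 or more reads in 11 adenomas numbered 16868. Of these, 2406 had only methylated or only unmethylated reads in the 8 mutants and were not tested. Median depth at the partly methylated sites was 408 to 960 reads per adenoma. The 8 mutant adenomas (double heterozygous 3 left out) entered a quasi-likelihood fit (R 4.3.3, edgeR 4.0.16). It had a depth term for each adenoma, a methylation term for each genotype and a dispersion without a trend (common dispersion 0.118). Controls stayed out of the fit. Limma 3.58.1 on log2((methylated + 2)/(unmethylated + 2)) was an alternative, beside depth minimums of 50 and 200 reads, other class limits, controls or all 12 adenomas in the fit, compared genotypes alone, a replicate block, centred ratios and leaving out each adenoma. Sex as a term was added after the data were seen. Between adenomas of a genotype, 31.4 to 82.5% of the sites differed (chi-square p under 0.05), so none looked like 1 library deposited again. Named sites were the up to 8 largest called differences per comparison and direction with groups that did not overlap (1 per run); otherwise the 3 smallest p per direction; the 5 largest and 3 lowest Tet1 null minus control differences; the 3 smallest and 3 largest ranges; 3 runs with the most sites, the first in genome order among ties; and 2 sites on each side of each limit. Figures were drawn with matplotlib 3.10.9.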

Additional observations from a re-analysis of the deposited data

Results flagged for a closer look

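The difference between mutant genotypes was itself tested at 3 contrasts, and 2 gave sites among the partly methylated ones. The third, double heterozygous against Tdg heterozygous adenomas, gave 0 sites by edgeR and by limma. Tet1 null and Tdg heterozygous adenomas differed at 60 sites (edgeR adjusted p under 0.05), with the Tet1 null mean above at each and a median difference of 25.1 points. That is 4.85% of the partly methylated sites, against 1.71% of all sites tested. Tet1 null and double heterozygous adenomas differed at 19 sites, again with the Tet1 null mean above, and a median difference of 27.8 points. That is 1.54%, against 0.595% of all sites tested, and limma called 3 of the 19.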

How the results depend on the processing

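The 60 sites of Tet1 null against Tdg heterozygous adenomas became 33 with limma on ratios centred on sites of 20 to 80%, all 33 among the 60. Sex as a term gave 40 (3.23%, beside 1.155% of all tested sites), 38 of them among the 60. Class limits of 10 and 20 gave 22 of 690 (3.19%). Where all 3 controls lay between 5 and 20, 17 of 722 were called (2.36%, beside 1.71% of all sites). The compared genotypes alone gave 75, and leaving out 1 Tet1 null or Tdg heterozygous adenoma gave 30 to 52. The 19 sites of Tet1 null against double heterozygous adenomas became 3 with limma, 2 with centred ratios, 12 with the compared genotypes alone, 10 with sex as a term, 2 of 722 (0.277%, below the 0.595% of all sites) where all 3 controls lay between 5 and 20, 8 of 690 (1.16%) with limits of 10 and 20, and 4 to 18 without 1 adenoma. Double heterozygous against Tdg heterozygous adenomas gave 0 sites in each alternative but 1, with 0 to 1 when an adenoma was left out. No call changed direction at the 8 named sites of either comparison: over 284 site and setting pairs, 230 passed the threshold and 54 did not. Against Tdg heterozygous adenomas, only position 107281178 on chromosome 9 missed the threshold in any setting, in 2 of them. Against double heterozygous adenomas, only position 35660144 on chromosome 16 passed it in every setting. The mean level was 14.7% (control), 21.2% (Tet1 null) and 15.7% (Tdg heterozygous) with limits of 10 and 20, and the control median was 10.7%. With 1 control left out of the choice, the 2 controls that still chose the sites had means of 11.2 to 11.5%, which the rule holds in its limits. The control left out stood at 11.2, 12.1 and 12.2% for controls 1 to 3. The means were then 17.3 to 17.6% in Tet1 null, 12.1 to 12.5% in Tdg heterozygous and 15.1 to 15.8% in double heterozygous adenomas. The causes of these changes were not tested, except that fewer sites enter under narrower limits.

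The labels give the genotypes the same replicate numbers. With the replicate number as a block (replicate block) the counts were 44, 6 and 0, with 1.17, 0.221 and 0% of all tested sites called. The labels do not say whether adenomas of the same number belong together. Correlations across sites cannot settle it, since sites are not replicates. Deviations of same-numbered Tet1 null and Tdg heterozygous adenomas correlated across sites at 0.129, -0.236 and -0.059. Number 2 gave 0.545 between Tdg and double heterozygous adenomas, and the other 3 pairs with a double heterozygous adenoma gave -0.362 to -0.326.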

Other observations

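On chromosome 2, positions 6021498 and 6021726 (mm9), 228 bp apart, were high in an adenoma of each of 3 genotypes. At position 6021726 Tet1 null 3 stood at 59.8%, Tdg heterozygous 1 at 55.3% and control 1 at 31.4%, with 32.9 to 33.9% in Tet1 null 1 and 2 and Tdg heterozygous 2. It was 9.06 to 14.4% in the 3 double heterozygous adenomas, controls 2 and 3 and Tdg heterozygous 3. At position 6021498 Tet1 null 3 stood at 46.9%, Tdg heterozygous 1 at 29.9% and control 1 at 24.4%, above all other adenomas. The double heterozygous adenomas stood at 2.24 to 3.38% there. Both were called for Tet1 null against double heterozygous adenomas by edgeR (adjusted p = 0.0012 at 6021498 and 0.0343 at 6021726) and not by limma (0.132 and 0.318). Neither was called against Tdg heterozygous adenomas (edgeR adjusted p = 0.674 and 0.811).

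Position 53777248 on chromosome 13 reached 33.5% or more in at least 1 adenoma of each genotype, at 79.4, 45.6 and 40.7% in Tet1 null, 13.7, 35.3 and 20.1% in Tdg heterozygous, 45.9, 60.1 and 34.01% in double heterozygous and 10.6, 33.5 and 15.8% in control adenomas. Among 204 pairs of neighbouring partly methylated sites, the Spearman rho between neighbours across pairs was 0.558 in double heterozygous 1 and 0.530 in Tdg heterozygous 3, and 0.244 to 0.422 in the other 9 adenomas. Neighbours can be read from the same fragments, so these values are a description.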
